A study of Mus musculus with 17 samples.

Results

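Mouse bone marrow-derived macrophages that had been kept in medium conditioned by B16F10 melanoma cells were compared with control macrophages by RNA sequencing. The comparison rests on 6 of the 17 libraries of the series, 3 of each kind, chosen by their treatment labels, and on the 13630 genes of 55401 listed that passed a low-count filter. Macrophages of both groups came from C57BL/6J mice and were grown from bone marrow in DMEM with fetal bovine serum. B16F10 is a mouse melanoma line of C57BL/6 origin, and its conditioned medium carries what these cells release in culture. Exposure lasted 6 h. The labels name the other arm only as a control group and do not say which medium it had, so products of the melanoma cells and a change of medium cannot be told apart. Nor do the labels say whether replicates came from separate mice or separate dishes, and no age or sex of the animals is given. The remaining 11 libraries are macrophages in the same conditioned medium with KCl (3) or NaCl (2) at 40 mM, or with isotonic KCl on macrophages with floxed Kcnj2, either without Cre (3) or with Lyz2-Cre, a driver active in myeloid cells (3).

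Macrophages read their surroundings through Toll-like receptors and cytokine receptors. Toll-like receptors signal through adaptor proteins to NF-kB, a dimeric transcription factor held in the cytoplasm by inhibitor proteins, and to MAP kinases and AP-1. Among the earliest genes switched on are secreted chemokines and cytokines, followed by the inhibitors and phosphatases that end the signal. A second wave runs through interferon regulatory factors and STAT proteins and yields antiviral and antimicrobial proteins. At rest, the same cells clear dying cells, process lipids and keep up a set of surface receptors under the control of lineage factors.

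Levels below are CPM, counts scaled to library size with TMM factors over the 6 libraries. A fold change is conditioned medium against control on the log2 scale, with its standard error (SE). Each adjusted p is from edgeR's quasi-likelihood test with Benjamini-Hochberg adjustment over all 13630 genes, unless another tool is named. A gene is said to rise or fall where its adjusted p is under 0.05. The libraries held 16524448 to 18511570 counts in control and 15458703 to 16460805 in conditioned medium, and 3 counts, the limit that a count of 0 allows, amount to 0.144 to 0.221 CPM, which covers counting error only. All 13 macrophage markers were tested, 3 rose and 9 fell, with a median log2 fold change of −0.32 and a summed level of 34110 to 34735 CPM in control and 34052 to 36314 CPM in conditioned medium. Adgre1, which encodes the macrophage antigen F4/80, stood at 1094, 1093 and 1166 CPM in control and 2642, 2721 and 2842 CPM in conditioned medium and was 1 of the 3 that rose. Itgam, which encodes CD11b, was 1 of the 9 that fell, from 381 ± 5.51 to 305 ± 12.5 CPM (adjusted p = 2.8e-06, log2 fold change −0.32 with SE 0.04). Most of the summed level is Lyz2, lysozyme, at 25358 ± 594 and 24372 ± 1241 CPM (adjusted p = 0.21, log2 fold change −0.06 with SE 0.04); it was called lower under total-count scaling (log2 fold change −0.39, adjusted p = 2e-09). Itgam was picked here after its values were seen. Of 9 melanoma markers only Mitf, which macrophages express too, passed the filter; Tyr, Dct, Slc45a2 and Oca2 were at 0 counts in all 6 libraries, and the summed list, nearly all of it Mitf, was at 78.8 to 84.7 CPM in control and 209 to 215 CPM in conditioned medium. Summed neutrophil markers were at 74.3 to 74.9 CPM in control and 193 to 210 CPM in conditioned medium, and 3 of the 6 tested rose and 1 fell. Most of that sum was Csf3r, which is also in the list of cytokine receptors below. Retnlg was at 0 counts throughout, and Ly6g, Mpo and Elane had at most 4 counts in any library. Fibroblast and stromal markers were more abundant: all 10 passed the filter, and together they made up 1072 to 1271 CPM of a control library. In conditioned medium libraries they made up 909 to 996 CPM. Of the 10, 1 rose, 3 fell and 6 were not called. Which cells these marker counts came from was not tested, nor was the part of neutrophils or stromal cells in the results. In such bulk samples fewer cells of a type and less RNA per cell cannot be told apart.

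The response was broad. Of the 13630 genes tested, 9259 (67.9%) changed, 4592 (33.7%) higher and 4667 (34.2%) lower in conditioned medium. At least 2-fold differences were called for 1306 higher genes (9.58%) and 1655 lower genes (12.1%). A difference of at least 16-fold was seen for 117 genes that rose and 53 that fell. The 3 and 3 libraries did not overlap for 9580 genes (70.3%), so the lists below are read against these shares. The split into higher and lower depends on the scale. The control libraries had TMM factors of 1.12 to 1.13 and the conditioned medium libraries 0.879 to 0.900. Scaling by total counts alone shifts the median gene by −0.33. It leaves 2636 genes higher and 7644 lower, so that 25.6% of called genes are higher in place of 49.6%. Changes below are on the TMM scale, and lists whose median changes sign under total-count scaling are named as such.

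**Figure D1:**
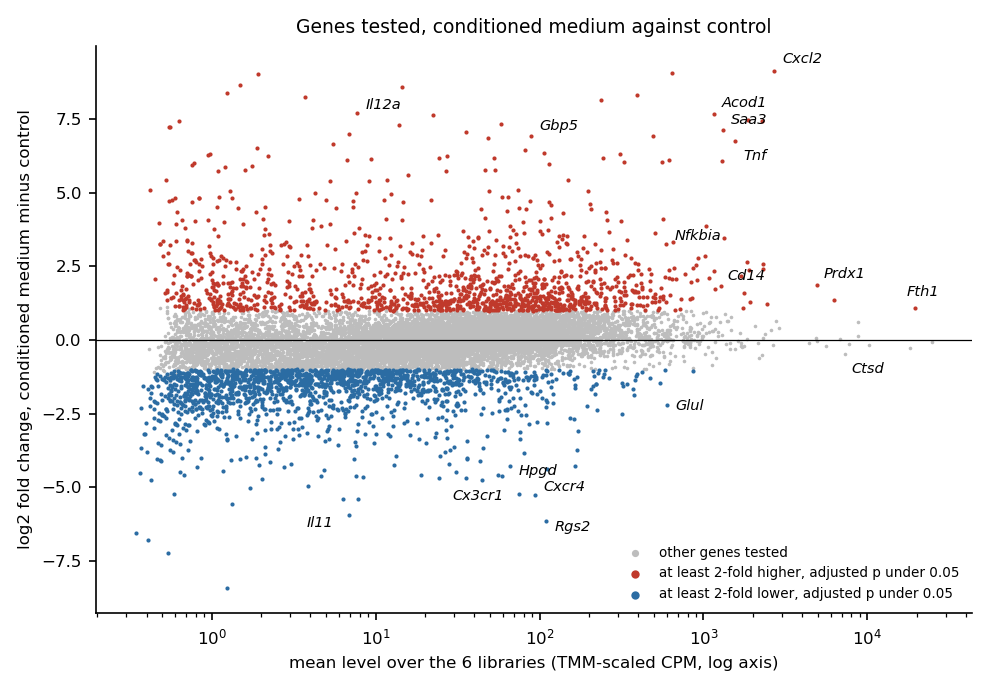
Log2 fold change (conditioned medium minus control, vertical axis) against the mean level over the 6 libraries (TMM-scaled CPM, log horizontal axis) for the 13630 genes tested; red points are the 1306 genes at least 2-fold higher and blue points the 1655 at least 2-fold lower. Chemokine and cytokine genes such as Cxcl2 and Tnf sit at the top at high levels, and Rgs2, Cxcr4 and Cx3cr1 sit low.

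A small set of induced genes came to hold a larger part of each library. The sets were chosen by fold in these same libraries, so the direction of each share was fixed by the choice. The 117 genes at least 16-fold higher made up 0.0622% to 0.0649% of a control library and 3.52% to 3.66% of a conditioned medium library. All genes at least 2-fold higher went from 8.46% to 8.56% of counts in control to 24.7% in each conditioned medium library, and those at least 2-fold lower from 5.36% to 5.53% to 1.40% to 1.47%. By absolute gain of CPM the first was Fth1, the heavy chain of the iron store ferritin, at 12531, 12462 and 12546 CPM in control and 27231, 26180.2 and 25860.2 CPM in conditioned medium (adjusted p = 8.6e-16, log2 fold change 1.08 with SE 0.04). Prdx1, a peroxide-reducing enzyme, went from 2115 ± 110.2 to 7770.1 ± 571 CPM (mean ± SD, n = 3 and 3), and Sqstm1, the autophagy receptor p62, from 659 ± 17.7 to 3971 ± 54.1 CPM. Among the largest losses of CPM were lysosomal protease genes and Apoe, with small folds. Apoe, the lipid carrier apolipoprotein E, fell from 19858 ± 367 to 16563 ± 576 CPM (adjusted p = 4.6e-06, log2 fold change −0.26 with SE 0.04). The lysosomal protease Ctsd fell from 8507 ± 125 to 6072 ± 212 CPM. Glul, the glutamine synthetase, was an exception in size: it stood at 974, 1005 and 988 CPM in control and 220.0, 207 and 209 CPM in conditioned medium, a log2 fold change of −2.22 (SE 0.04, adjusted p = 1.6e-19).

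A first list of 6 CXC chemokines, all tested, lies on the plus strand of chromosome 5, within 146.579 kb (chr5:90759360-90905938, GRCm38). Of these 5 rose while 1 fell, with a median log2 fold change of 6.40 against −0.04 over all genes tested. Cxcl2 (ENSMUSG00000058427, chr5:90903871-90905938, plus strand), a ligand of the neutrophil receptor CXCR2, stood at 8.27, 9.48 and 10.9 CPM in control and 5667, 5191 and 5183 CPM in conditioned medium (adjusted p = 4.6e-25, log2 fold change 9.12 with SE 0.08). Genes named for the highest or lowest folds, Cxcl2 among them, had to show no overlap, so that trait is given by the choice. Cxcl2 alone went from 0.000932% to 0.00123% of counts to 0.464% to 0.498%. Cxcl3 (chr5:90786103-90789600, plus strand) stood at 1.93, 2.73 and 2.40 CPM in control and 1382, 1285 and 1191 CPM in conditioned medium (log2 fold change 9.08). Cxcl1 (chr5:90891241-90893115, plus strand) stood at 2.26, 2.43 and 2.69 CPM in control and 830.0, 774 and 753 CPM in conditioned medium (log2 fold change 8.31). Both genes were at a few CPM in every control library and high in every conditioned medium library. For them too the naming rule required groups without overlap. Their neighbours moved less: Cxcl5 rose to 144 ± 7.01 from 6.38 ± 1.02 CPM and Pf4, platelet factor 4, to 266 ± 16.5 from 114 ± 8.34 CPM. Ppbp, which lies between Cxcl5 and Pf4 (chr5:90768518-90770063, plus strand), fell, from 18.6 ± 2.15 to 14.2 ± 0.223 CPM (adjusted p = 0.0024, log2 fold change −0.39 with SE 0.10).

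The promoters of the 3 strongest members of this cluster are shown because each holds the kappaB motif, the sequence class that NF-kB dimers bind. Each is the RefSeq window of 250 bases before to 50 after the start (GRCm38.p6, plus strand, 5′ to 3′: chr5:90903649-90903948, chr5:90785851-90786150 and chr5:90890995-90891294), and capitals mark GGNNTTTCC on either strand.
Cxcl2: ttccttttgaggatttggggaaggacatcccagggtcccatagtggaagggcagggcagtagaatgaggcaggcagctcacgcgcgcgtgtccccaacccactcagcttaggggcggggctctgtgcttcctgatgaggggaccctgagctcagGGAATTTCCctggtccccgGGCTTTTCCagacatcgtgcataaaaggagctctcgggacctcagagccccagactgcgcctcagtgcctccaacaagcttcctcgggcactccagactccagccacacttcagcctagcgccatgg
Cxcl3: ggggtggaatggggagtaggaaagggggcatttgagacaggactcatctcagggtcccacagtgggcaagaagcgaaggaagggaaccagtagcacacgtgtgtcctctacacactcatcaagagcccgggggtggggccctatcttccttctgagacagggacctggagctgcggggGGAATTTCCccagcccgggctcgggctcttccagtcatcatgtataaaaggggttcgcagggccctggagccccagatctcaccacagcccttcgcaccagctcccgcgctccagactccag
Cxcl1: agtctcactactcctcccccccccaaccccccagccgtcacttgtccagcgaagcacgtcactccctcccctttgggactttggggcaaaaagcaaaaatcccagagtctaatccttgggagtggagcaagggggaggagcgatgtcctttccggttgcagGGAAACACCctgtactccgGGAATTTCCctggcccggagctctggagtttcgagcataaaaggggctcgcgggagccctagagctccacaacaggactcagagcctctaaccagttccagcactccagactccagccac
Matches began at −96 and −77 in Cxcl2, −72 in Cxcl3 and −89 and −70 in Cxcl1, counted from the RefSeq start, which need not be the gene start given with a gene's position. A match is a description of letters, not a measured binding site.

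Other CXC chemokines divided by gene. Cxcl10, which draws T cells through CXCR3, stood at 2.31, 2.13 and 1.3 CPM in control and 103, 112 and 98.5 CPM in conditioned medium. Cxcl16, a membrane-bound chemokine, rose from 358 ± 9.25 to 631 ± 13.3 CPM. A pair made constitutively in many tissues went the other way: Cxcl12, the ligand of CXCR4, fell from 49.8 ± 2.57 to 32.8 ± 3.04 CPM. Cxcl14 fell from 16.1 ± 0.870 to 3.96 ± 0.539 CPM. Of 11 CC chemokines tested, 9 rose, 8 of them at least 2-fold, with a median of 3.53. The weakest to rise was Ccl6 (log2 fold change 0.17). It had 2863, 2935 and 2935 counts in control and 2390, 2239 and 2392 in conditioned medium. Ccl3 (chr11:83647844-83649355, minus strand), a ligand of CCR1, stood at 19.4, 21.4 and 21.9 CPM in control and 3858, 3762 and 3567 CPM in conditioned medium (adjusted p = 3.7e-25, log2 fold change 7.48 with SE 0.06). Ccl4, its neighbour on chromosome 11 (chr11:83662584-83664683, plus strand), stood at 8.16, 8.24 and 7.64 CPM in control and 1035, 988 and 924 CPM in conditioned medium. For both, all control libraries were low and all conditioned medium libraries were high, and for Ccl3 the naming rule required groups without overlap. Ccl5 rose to 224 ± 1.89 CPM (log2 fold change 4.15). The monocyte attractant Ccl2 rose to 241 ± 13.3 CPM (3.53). Ccl22, a ligand of CCR4, rose to 41.7 ± 2.22 CPM (4.75). Ccl9, a further ligand of CCR1, was already at 737 ± 38.7 CPM in control and rose to 3870.1 ± 186 CPM (2.39). The 1 CC chemokine that fell, Ccl25, is outside the naming rule and is given because its count is 1: it stood at 7.25, 4.96 and 5.29 CPM in control and 3.02, 5.35 and 3.85 CPM in conditioned medium, groups that overlapped (adjusted p = 0.033, log2 fold change −0.51 with SE 0.20), and the call was lost with DESeq2 (adjusted p = 0.060) and without control library 1 or conditioned medium library 1 or 3 (adjusted p up to 0.20).

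All 6 members of the interleukin-1 list that were tested rose, 5 of them at least 2-fold, with a median of 3.86. The weakest was Il18bp (log2 fold change 0.31), with 234, 272 and 215 counts in control and 211, 205 and 219 in conditioned medium. Only 5 members were higher under total-count scaling or with the KCl and NaCl libraries in the fit. The same held without control library 3 or conditioned medium library 1. Il1a (chr2:129299610-129309972, minus strand), an alarm cytokine active without cleavage, stood at 1.5, 1.19 and 2.31 CPM in control and 446, 484 and 488 CPM in conditioned medium (adjusted p = 1.8e-22, log2 fold change 8.13 with SE 0.10). Il1rn, the antagonist that blocks the receptor of Il1a and Il1b, stood at 20.6, 20.3 and 21 CPM in control and 94.0, 92.7 and 91.0 CPM in conditioned medium (adjusted p = 9.1e-17, log2 fold change 2.16 with SE 0.06). The antagonist thus rose by a smaller factor than Il1a. Il18, which like Il1b needs cleavage by caspase-1, rose from 10.2 ± 0.874 to 51.7 ± 2.62 CPM. Il1f9 (interleukin-36 gamma) rose from 0.415 ± 0.133 to 17.8 ± 1.72 CPM. Of 12 genes of the IL-6, IL-12 and IL-10 families 8 rose and 3 fell, with a median of 1.5. Il6 stood at 0.644, 0.695 and 0.769 CPM in control and 125, 118 and 104 CPM in conditioned medium (adjusted p = 1.5e-20, log2 fold change 7.34 with SE 0.13). Il27, a subunit of interleukin-27, went from 0.619 ± 0.110 to 30.9 ± 1.66 CPM. Ebi3, its partner subunit, went from 33.5 ± 1.29 to 132 ± 7.85 CPM. The anti-inflammatory Il10 rose from 5.47 ± 0.798 to 26 ± 1.87 CPM. Il12a, the p35 subunit of interleukin-12, had 1, 1 and 2 counts in the control libraries and 204, 196 and 253 in the conditioned medium libraries (adjusted p = 2.4e-15). Il11, an IL-6 family cytokine linked to fibrosis, went the other way, at 13.5, 12.9 and 14.1 CPM in control and 0.295, 0.0714 and 0.270 CPM in conditioned medium (adjusted p = 4.1e-14, log2 fold change −5.94 with SE 0.25).

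TNF superfamily ligands were split, 5 up and 5 down of 11, with a median of −0.11. Tnf itself (chr17:35199381-35202007, minus strand) stood at 27.0, 28.5 and 30.2 CPM in control and 3118, 3089 and 3038 CPM in conditioned medium, and its spread within a group was small beside the difference (adjusted p = 3.7e-25, log2 fold change 6.75 with SE 0.06). Tnfsf9, the ligand of 4-1BB, rose to 25.5 ± 0.997 from 2.82 ± 0.336 CPM and Tnfsf15 to 15.8 ± 0.741 from 1.31 ± 0.444 CPM. Tnfsf12, which encodes TWEAK, fell from 50.4 ± 0.708 to 27.2 ± 1.48 CPM. Tnfsf11, the osteoclast factor RANKL, fell from 3.86 ± 0.469 to 0.974 ± 0.305 CPM. Among 21 colony-stimulating and growth factors 8 rose and 11 fell (median −0.17). Gdf15, a stress-induced member of the TGF-beta family, stood at 7.25, 9.78 and 8.55 CPM in control and 227, 229 and 207 CPM in conditioned medium (adjusted p = 1.7e-20, log2 fold change 4.69 with SE 0.08). Csf3, the granulocyte colony-stimulating factor, had 0, 6 and 4 counts in control and 407, 366 and 395 in conditioned medium (adjusted p = 6e-16). Csf2, the granulocyte-macrophage factor, is outside the naming rule and was picked after its values were seen: it had 0 counts in each control library and 39, 45 and 42 in the conditioned medium libraries. Tgfb1 rose from 326 ± 10.7 to 579.6 ± 8.74 CPM. Inhba, a subunit of activin, fell from 130.0 ± 1.35 to 56.0 ± 2.38 CPM. Pdgfc, a platelet-derived growth factor, fell from 27.6 ± 1.58 to 8.35 ± 1.12 CPM. For Vegfa, which drives blood vessel growth, the levels were 44.5 ± 2.17 and 39.5 ± 0.792 CPM (adjusted p = 0.035, log2 fold change −0.17 with SE 0.07), a call that DESeq2 did not make (adjusted p = 0.096) and that was lost without any 1 library other than control library 2 (adjusted p 0.026 to 0.12). None of 8 interferon genes passed the filter; Ifnb1, interferon beta, had 1, 0 and 0 counts in control and 8, 4 and 7 in conditioned medium.

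**Figure D2:**
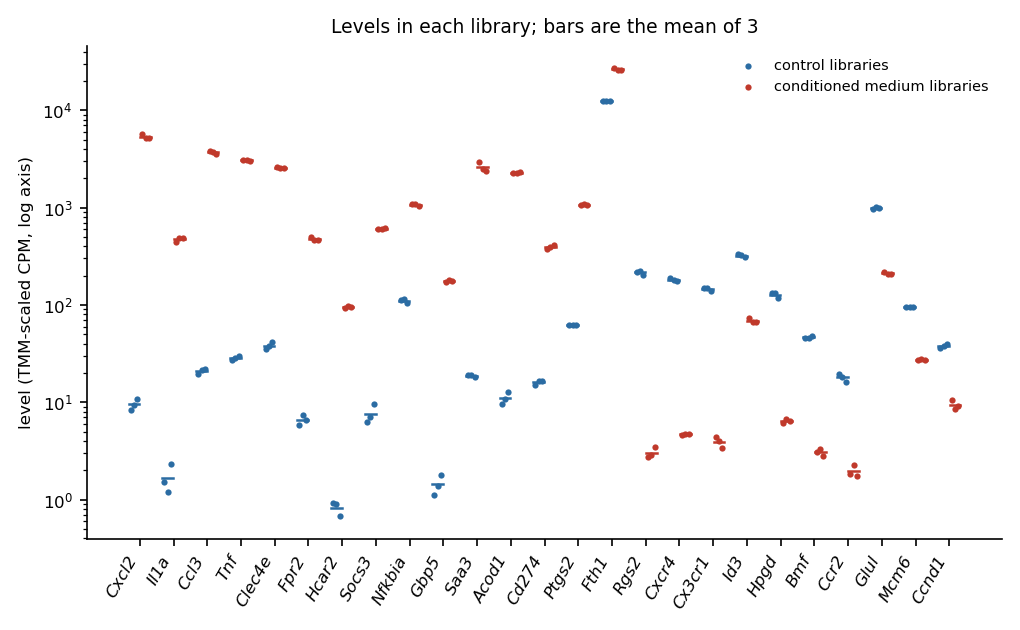
Level of 25 genes in each library (TMM-scaled CPM, log axis); each point is 1 library, blue for control and red for conditioned medium, and bars are the mean of 3. For every gene drawn the 3 blue and 3 red points do not overlap, from Cxcl2 (9.55 and 5347 CPM on average) to Ccnd1 (38.0 and 9.38 CPM). The naming rule required this of some of them, such as Cxcl2.

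Most chemokine receptors fell: 8 of 11 tested fell and 2 rose, with a median of −1.01. Cxcr4 (chr1:128588199-128592293, minus strand), the receptor of Cxcl12 that retains leukocytes in bone marrow, stood at 189, 179.9 and 178 CPM in control and 4.64, 4.71 and 4.73 CPM in conditioned medium (adjusted p = 1.3e-21, log2 fold change −5.28 with SE 0.08). Cx3cr1 (chr9:119901616-120069879, minus strand), the fractalkine receptor of resident macrophages and patrolling monocytes, stood at 149, 149.6 and 141 CPM in control and 4.35, 4.0 and 3.38 CPM in conditioned medium (adjusted p = 9.6e-21, log2 fold change −5.23 with SE 0.09). Ccr2, through which monocytes answer Ccl2, stood at 19.7, 18.4 and 16.1 CPM in control and 1.84, 2.28 and 1.76 CPM in conditioned medium (log2 fold change −3.20). All 3 genes were high in every control library and at a few CPM in every conditioned medium library. For Cxcr4 and Cx3cr1 the naming rule required groups without overlap. Cxcr3, the receptor of Cxcl10, fell from 3.68 ± 1.07 to 0.188 ± 0.0357 CPM. One of the pair that rose was Ccrl2, a chemokine-binding receptor that does not signal by itself, at 6.82, 7.44 and 6.92 CPM in control and 79.6, 77.2 and 76.0 CPM in conditioned medium (adjusted p = 1.4e-18, log2 fold change 3.46 with SE 0.08). The other was Xcr1, a receptor of dendritic cells, at 0.752, 0.993 and 0.625 CPM in control and 0.442, 1.93 and 2.43 CPM in conditioned medium (adjusted p = 0.044, log2 fold change 1.03 with SE 0.44), a call that DESeq2 did not make (adjusted p = 0.059) and that was lost without control library 1 or 3 or conditioned medium library 2 or 3 (adjusted p up to 0.29).

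Pattern recognition receptors moved in both directions. Of 13 genes of the Toll-like receptor and CD14 list 7 rose and 6 fell (median 0.49). Tlr2 and its partners Tlr1 and Tlr6, which together bind bacterial lipopeptides, all rose: Tlr2 stood at 189.6, 194 and 205 CPM in control and 639, 646 and 658 CPM in conditioned medium. Tlr1 stood at 40.4, 38.7 and 43.1 CPM in control and 387, 387 and 404 CPM in conditioned medium. Tlr6 went from 15.8 ± 1.42 to 53.1 ± 2.19 CPM. Cd14, the co-receptor that passes ligands to Tlr2 and Tlr4, stood at 547, 557 and 568 CPM in control and 2040.1, 1998 and 1928 CPM in conditioned medium (adjusted p = 1.2e-18, log2 fold change 1.83 with SE 0.04). Tlr3, the endosomal receptor of double-stranded RNA, fell from 18.4 ± 2.20 to 8.86 ± 0.449 CPM. Ly86, the partner of the receptor RP105, fell from 63.7 ± 3.87 to 33.3 ± 1.24 CPM. Of 11 cytosolic sensors 8 rose and 1 fell (median 0.93). Nod2, a sensor of peptidoglycan fragments, stood at 3.44, 2.43 and 3.36 CPM in control and 27.0, 30.8 and 32.6 CPM in conditioned medium. Ifih1, the RNA sensor MDA5, rose from 23.0 ± 0.753 to 68.4 ± 2.98 CPM. Zbp1, a sensor of Z-form nucleic acid, rose from 5.22 ± 0.972 to 23.4 ± 1.33 CPM. The 1 that fell was Tmem173, the DNA-pathway adaptor STING, at 34.7, 30.7 and 38.2 CPM in control and 13.4, 11.8 and 13.8 CPM in conditioned medium (adjusted p = 1.5e-10, log2 fold change −1.41 with SE 0.10).

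Among lectin and scavenger receptors 14 of 20 rose and 5 fell (median 0.52). Clec4e (chr6:123281789-123289870, minus strand), the Mincle receptor of glycolipids and of dead cells, stood at 35.0, 38.1 and 41.5 CPM in control and 2586, 2575 and 2541 CPM in conditioned medium (adjusted p = 2.7e-24, log2 fold change 6.07 with SE 0.06). The scavenger receptor Marco stood at 15.3, 18.5 and 16.3 CPM in control and 1184, 1077 and 1052 CPM in conditioned medium (adjusted p = 4.2e-23, log2 fold change 6.04 with SE 0.07). Neither group overlapped the other for either gene. The lectin Clec5a rose from 74.1 ± 1.47 to 364 ± 15.2 CPM. Msr1, the class A scavenger receptor, rose from 286 ± 10.7 to 795 ± 16.5 CPM. Mrc1, the mannose receptor, fell from 185 ± 5.63 to 130.1 ± 5.84 CPM. Stab1, the scavenger receptor stabilin-1, fell from 343 ± 32.6 to 142 ± 10.4 CPM. The lysosomal receptor Scarb2 fell from 344 ± 8.35 to 154 ± 3.44 CPM. Fc gamma receptors, which bind immunoglobulin G, were split 3 up and 5 down of 8 genes with their partners (median −0.53). The inhibitory receptor Fcgr2b stood at 78.0, 79.1 and 79.3 CPM in control and 445, 419 and 413 CPM in conditioned medium (adjusted p = 1.6e-19, log2 fold change 2.43 with SE 0.05). The activating receptors went the other way. Fcgr1 fell from 107 ± 3.95 to 36.9 ± 1.82 CPM (adjusted p = 1.6e-14, log2 fold change −1.53 with SE 0.06). Fcgr3 fell from 428 ± 9.21 to 227 ± 3.04 CPM. Syk, the kinase that activating Fc receptors signal through, rose from 265 ± 13.7 to 1547 ± 66.3 CPM.

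Formyl peptide receptors rose: Fpr2, which senses bacterial and mitochondrial peptides, stood at 5.80, 7.44 and 6.58 CPM in control and 504, 467 and 463 CPM in conditioned medium (adjusted p = 7.2e-23, log2 fold change 6.17 with SE 0.07). Fpr1 went from 11.7 ± 1.12 to 386 ± 15.7 CPM. C5ar2, the second receptor of complement C5a, fell from 13.7 ± 0.490 to 1.89 ± 0.740 CPM. The list of complement and formyl peptide receptors as a whole was at a median of 0.09, or −0.25 under total-count scaling. Among 16 receptors for purines, adenosine and lipid mediators 7 rose and 8 fell, most of them at least 2-fold (6 and 7). Hcar2, the receptor of niacin and beta-hydroxybutyrate, stood at 0.913, 0.893 and 0.673 CPM in control and 93.6, 96.6 and 96.0 CPM in conditioned medium (adjusted p = 6.9e-21, log2 fold change 6.84 with SE 0.11). The cyclic AMP-raising adenosine receptors Adora2a and Adora2b rose, from 2.88 ± 0.458 to 96.0 ± 0.405 CPM and from 10.1 ± 1.15 to 45.7 ± 3.25 CPM. The prostacyclin receptor Ptgir rose from 3.56 ± 0.812 to 28.7 ± 1.49 CPM. P2ry6, the receptor of UDP, fell from 132 ± 6.10 to 22.3 ± 1.61 CPM. S1pr1, a receptor of sphingosine-1-phosphate, fell from 84.6 ± 1.82 to 26.2 ± 2.60 CPM.

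Of 27 cytokine receptors 13 rose and 10 fell with a median of 0.22, which becomes −0.11 under total-count scaling. Tnfrsf1b, the second TNF receptor, stood at 598, 617 and 629 CPM in control and 3175, 3177 and 3209.6 CPM in conditioned medium (adjusted p = 1.7e-20, log2 fold change 2.37 with SE 0.04). Csf3r, the receptor of Csf3, rose from 56.0 ± 2.01 to 171 ± 10.3 CPM. Il4ra, the receptor chain of IL-4, rose from 87.7 ± 5.03 to 155 ± 3.75 CPM. Both chains of the TGF-beta receptor fell. The ligand Tgfb1 rose, but the other ligands did not share its rise in counts. Tgfb3 had 440, 469 and 553 counts in control and 111, 93 and 140 in conditioned medium. Tgfb2 had 150, 182 and 221 counts in control and 107, 135 and 121 in conditioned medium. Tgfbr1 went from 328 ± 5.48 to 117 ± 5.02 CPM. Tgfbr2 fell from 116 ± 8.06 to 48.2 ± 2.11 CPM. Il6ra, which binds IL-6, fell from 98.1 ± 1.83 to 32.5 ± 0.871 CPM.

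Inside the cell, NF-kB genes rose as a group: 15 of 16 rose, 11 at least 2-fold, with a median of 1.69. Nfkbia (chr12:55489410-55492647, minus strand), the inhibitor IkB alpha, stood at 112, 115 and 105 CPM in control and 1086, 1085 and 1037 CPM in conditioned medium (adjusted p = 2.2e-21, log2 fold change 3.27 with SE 0.05). Nfkbiz, an atypical inhibitor that also serves as a co-activator, stood at 40.5, 37.1 and 30.9 CPM in control and 579, 585 and 606 CPM in conditioned medium (adjusted p = 2e-19, log2 fold change 4.03 with SE 0.07). Of the subunits, Nfkb2 rose from 69.7 ± 2.49 to 363 ± 8.53 CPM. Nfkb1 rose from 115 ± 3.65 to 404 ± 8.5 CPM. The exception was Nfkbid, outside the naming rule and given as the only member that fell, at 21.7 ± 2.57 and 18.3 ± 0.245 CPM (adjusted p = 0.034, log2 fold change −0.24 with SE 0.10). That call was lost with DESeq2 (adjusted p = 0.083) and without any 1 library other than control library 2. The Nfkbia promoter is shown because it holds kappaB motifs, marked in capitals as GGNNTTTCC on either strand (RefSeq window, GRCm38.p6, minus strand, 5′ to 3′, chr12:55492598-55492897).
Nfkbia: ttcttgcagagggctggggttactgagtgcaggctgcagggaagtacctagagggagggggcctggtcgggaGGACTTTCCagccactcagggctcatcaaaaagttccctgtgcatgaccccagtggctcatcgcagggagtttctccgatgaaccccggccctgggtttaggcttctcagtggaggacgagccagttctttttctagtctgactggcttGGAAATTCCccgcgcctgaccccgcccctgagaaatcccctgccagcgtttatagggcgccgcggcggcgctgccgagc
The matches began at −178 and −29 from the RefSeq start.

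Adaptors, kinases and brakes downstream of Toll-like receptors rose in 22 of 29 cases and fell in 4 (median 1.23). Tnfaip3, the ubiquitin-editing brake A20, stood at 27.0, 22.2 and 23.2 CPM in control and 476, 482 and 498 CPM in conditioned medium (adjusted p = 1.4e-21, log2 fold change 4.33 with SE 0.06). Malt1, the paracaspase, stood at 25.7, 30.6 and 30.1 CPM in control and 479, 480.0 and 500.2 CPM in conditioned medium. Irak3, a pseudokinase that damps the pathway, stood at 29.7, 25.0 and 28.5 CPM in control and 254, 265 and 282 CPM in conditioned medium. Each of these was several-fold higher in every conditioned medium library than in any control library. Traf1, an adaptor of TNF receptors, rose from 15.6 ± 0.972 to 209 ± 7.18 CPM. Tnip1, the A20-binding protein, rose from 84.2 ± 5.95 to 513 ± 18.5 CPM. The kinase Irak2 rose from 57 ± 2.94 to 299 ± 6.07 CPM. The kinase Ikbke rose from 62.5 ± 4.28 to 339.9 ± 16.5 CPM. MAP kinase phosphatases and RNA decay factors were split 8 up and 8 down of 18 (median −0.35). Dusp2, a nuclear phosphatase of MAP kinases, stood at 3.49, 3.72 and 4.13 CPM in control and 84.7, 87.2 and 79.5 CPM in conditioned medium (adjusted p = 2.3e-19, log2 fold change 4.46 with SE 0.09). The endonucleases that cut cytokine mRNA, Zc3h12a and Zc3h12c, rose from 31.3 ± 2.71 to 170.0 ± 11.6 CPM and from 14.4 ± 1.11 to 186 ± 16.4 CPM. Zfp36l1 and Zfp36l2, which bind AU-rich elements and speed the decay of mRNA, fell from 87.1 ± 3.53 to 15.8 ± 2.57 CPM and from 315 ± 16.1 to 106 ± 4.27 CPM.

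In the JAK-STAT list 13 of 21 genes rose and 4 fell, with a median of 0.34 that becomes 0.00 under total-count scaling, with 8 higher and 9 lower. Socs3 (chr11:117966079-117970047, minus strand), which ends signalling by IL-6 family receptors, stood at 6.23, 7.10 and 9.56 CPM in control and 605, 604 and 615 CPM in conditioned medium (adjusted p = 9.6e-21, log2 fold change 6.31 with SE 0.09). Socs1, the brake on interferon receptors, stood at 1.23, 1.19 and 1.35 CPM in control and 21.1, 22.8 and 21.1 CPM in conditioned medium. Cish, another family member, went from 0.633 ± 0.358 to 9.82 ± 1.22 CPM. Jak2 rose from 46.0 ± 2.78 to 201 ± 7.88 CPM. Usp18, which removes ISG15 and blunts interferon signalling, rose from 6.14 ± 0.448 to 32.9 ± 2.54 CPM. Regulators of G protein signalling, which shut off signals from receptors such as those of chemokines, fell in 6 of 9 cases (median −1.05). Rgs2 (chr1:143999338-144004161, minus strand) had the lowest fold change of the genes named here, at 219.7, 224 and 204 CPM in control and 2.72, 2.85 and 3.51 CPM in conditioned medium (adjusted p = 1.1e-21, log2 fold change −6.15 with SE 0.09). Rgs18 fell from 24.5 ± 2.37 to 8.43 ± 1.14 CPM. Rgs1 fell from 35.8 ± 4.17 to 16.7 ± 2.0 CPM. Rgs10 fell from 151 ± 9.28 to 71.9 ± 8.33 CPM. The 1 that rose was Rgs3, outside the naming rule, from 13.1 ± 1.85 to 19.6 ± 1.86 CPM (adjusted p = 0.00016, and 0.057 under total-count scaling).

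Transcription factors changed in both directions. Of 14 AP-1 and BATF factors 10 rose (median 1.07). Batf stood at 4.08, 5.61 and 4.81 CPM in control and 65.8, 59.7 and 63.6 CPM in conditioned medium. The small Maf protein Maff stood at 7.03, 7.30 and 6.49 CPM in control and 82.9, 72.4 and 78.1 CPM in conditioned medium. Junb rose from 191 ± 4.03 to 432 ± 11.9 CPM. Jund rose from 95.1 ± 2.51 to 234 ± 7.96 CPM. Fos, their immediate-early partner, fell, at 237, 242 and 249 CPM in control and 83.0, 92.1 and 79.9 CPM in conditioned medium (adjusted p = 3e-15, log2 fold change −1.51 with SE 0.06). Among EGR, KLF and other early factors 11 of 21 rose and 7 fell (median 0.22, or −0.12 under total-count scaling). Ets2 stood at 42.8, 43.2 and 45.1 CPM in control and 343, 340.4 and 349 CPM in conditioned medium (adjusted p = 1.3e-20, log2 fold change 2.97 with SE 0.05). Ier3 rose from 30.6 ± 0.630 to 178 ± 7.53 CPM. The zinc finger factor Klf6 rose from 249 ± 4.92 to 846 ± 15.9 CPM. Klf10 fell from 51.5 ± 1.57 to 21.9 ± 0.989 CPM. Interferon regulatory factors had a median of 0.08 (−0.25 under total-count scaling): Irf1 rose from 51.4 ± 1.15 to 140.2 ± 8.26 CPM. Irf7 rose from 16.5 ± 1.27 to 39.9 ± 2.20 CPM. Irf8, a lineage factor of monocytes, fell from 86.5 ± 1.49 to 49.5 ± 2.47 CPM.

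Lineage factors of myeloid cells all changed, 12 of 25 up and 13 down (median −0.15). Id3, an inhibitor of helix-loop-helix factors, stood at 331, 326 and 308 CPM in control and 73.7, 66.2 and 66.0 CPM in conditioned medium (adjusted p = 4.3e-18, log2 fold change −2.23 with SE 0.06). The spread in either group was a small part of that difference. Tfec, a relative of Mitf found in macrophages, stood at 25.6, 27.7 and 25.6 CPM in control and 241, 240.3 and 226 CPM in conditioned medium (adjusted p = 4.4e-20, log2 fold change 3.16 with SE 0.06). Mitf itself rose from 81.7 ± 3.80 to 211 ± 3.34 CPM. Cebpd and Cebpb, factors of the acute phase response, rose from 44.9 ± 2.22 to 227 ± 12.1 CPM and from 216 ± 8.91 to 591 ± 32.0 CPM. Bhlhe41 rose from 43.6 ± 1.41 to 162 ± 8.79 CPM.

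**Figure D3:**
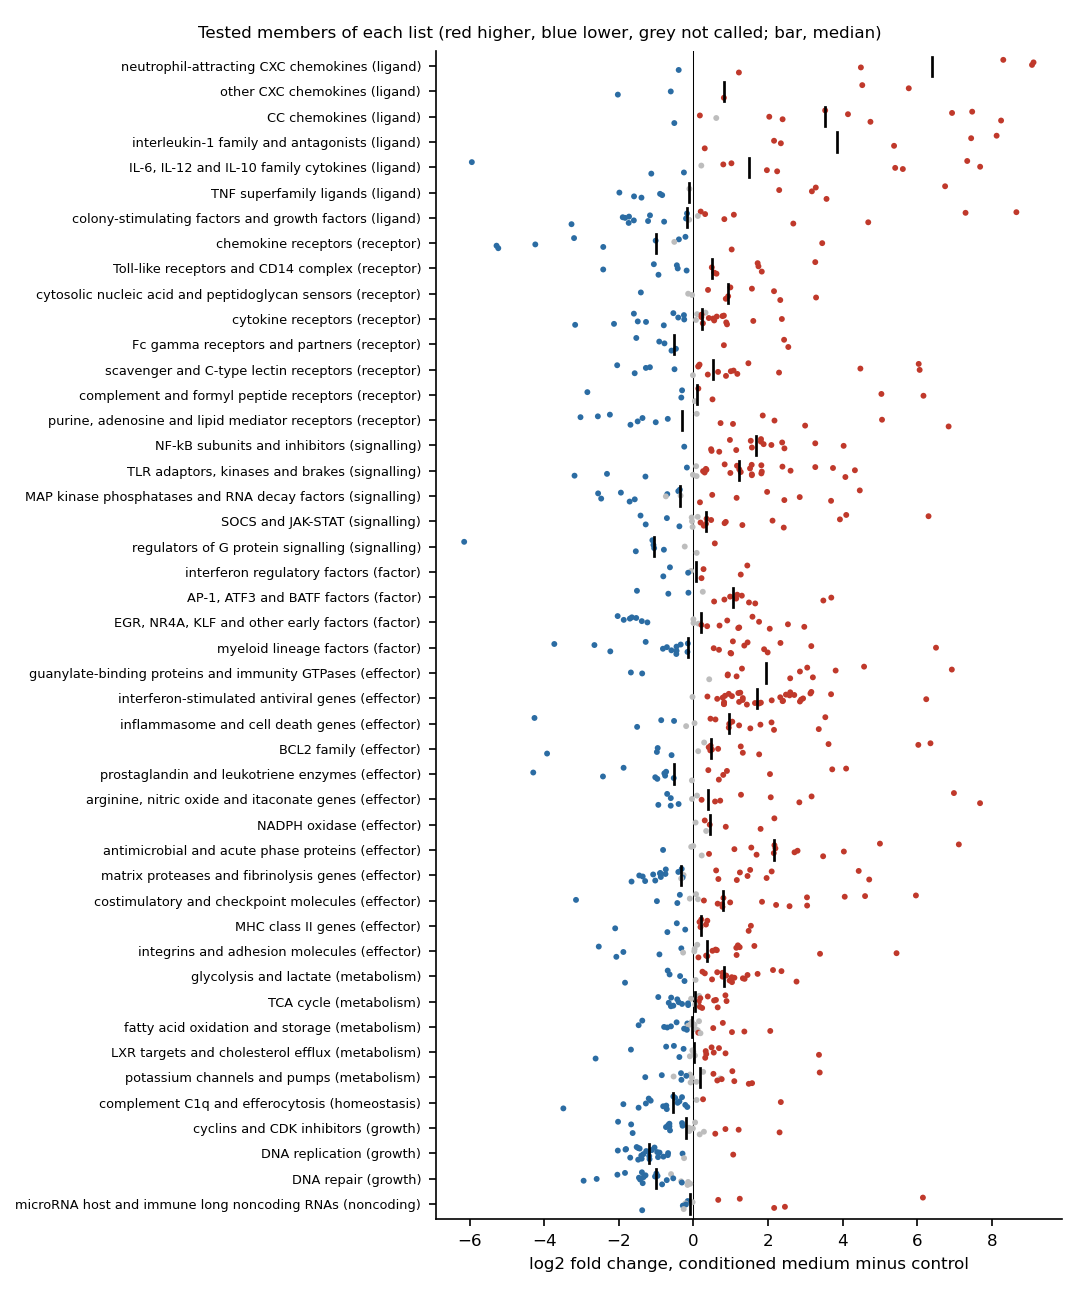
Log2 fold change (conditioned medium minus control, horizontal axis) of each tested member of the gene lists, grouped from ligands at the top to noncoding RNA at the bottom. The interferon list had no tested member and is not drawn. Red points rose, blue points fell, grey points were not called, and black bars are list medians. Chemokines and interleukin-1 genes reach furthest right, interferon-stimulated genes lie almost wholly to the right, and chemokine receptors, DNA replication and DNA repair lie mostly to the left.

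Among effectors, interferon-stimulated antiviral genes moved together: 33 of 34 rose, 25 of them at least 2-fold, and none fell, with a median of 1.71. Rsad2 (chr12:26442746-26456452, minus strand), the antiviral enzyme viperin, stood at 8.05, 6.70 and 6.39 CPM in control and 89.99, 92.7 and 90.1 CPM in conditioned medium (adjusted p = 1.2e-18, log2 fold change 3.69 with SE 0.08). Ifit1 (chr19:34640871-34650009, plus strand), which binds foreign 5′ ends of RNA, stood at 11.5, 8.83 and 8.79 CPM in control and 85.6, 88.1 and 86.4 CPM in conditioned medium (adjusted p = 2.9e-17, log2 fold change 3.16 with SE 0.09). Slfn2 rose from 197 ± 8.24 to 1036 ± 34.5 CPM. Oasl1 rose from 2.05 ± 0.119 to 10.3 ± 1.57 CPM. Ifi205, of the interferon-inducible p200 family, rose from 0.703 ± 0.166 to 54.0 ± 1.51 CPM, though near-identical copies of that family can share reads. Oas3 was the member without a call, at 29.7 ± 1.52 and 29.2 ± 3.55 CPM (adjusted p = 0.83); under total-count scaling it was lower (log2 fold change −0.36, adjusted p = 0.0014). Promoters of Ifit1 and Rsad2 are shown with the interferon-response motif AAANNGAAA, on either strand, in capitals (RefSeq windows, GRCm38.p6, 5′ to 3′: Ifit1 chr19:34640639-34640938, plus strand; Rsad2 chr12:26456403-26456702, minus strand).
Ifit1: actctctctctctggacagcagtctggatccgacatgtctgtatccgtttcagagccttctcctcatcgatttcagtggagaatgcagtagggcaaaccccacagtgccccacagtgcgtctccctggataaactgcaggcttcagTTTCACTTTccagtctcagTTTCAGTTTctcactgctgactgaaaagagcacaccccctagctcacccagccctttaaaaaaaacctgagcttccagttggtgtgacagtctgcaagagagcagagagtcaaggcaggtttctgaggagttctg
Rsad2: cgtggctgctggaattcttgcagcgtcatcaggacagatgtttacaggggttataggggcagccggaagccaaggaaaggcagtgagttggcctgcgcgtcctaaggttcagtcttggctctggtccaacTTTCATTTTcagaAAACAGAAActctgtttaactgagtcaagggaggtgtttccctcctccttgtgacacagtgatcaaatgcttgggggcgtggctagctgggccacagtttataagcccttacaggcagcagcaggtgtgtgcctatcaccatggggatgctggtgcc
Each window held 2 copies close together, at −104 and −85 in Ifit1 and at −120 and −107 in Rsad2.

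Guanylate-binding proteins and immunity GTPases, which attack vacuoles of intracellular pathogens, rose in 11 of 14 cases (median 1.95). Gbp5 (chr3:142493978-142522344, plus strand) stood at 1.13, 1.39 and 1.78 CPM in control and 174, 179 and 178 CPM in conditioned medium (adjusted p = 6.4e-22, log2 fold change 6.93 with SE 0.10). Gbp2 rose from 9.36 ± 1.91 to 224 ± 4.35 CPM. Gbp3 rose from 9.89 ± 1.06 to 82.3 ± 3.90 CPM. Gbp7 rose from 6.21 ± 0.365 to 45.0 ± 5.95 CPM. These 4 lie together on chromosome 3 (chr3:142493978-142638008, GRCm38), where each tested member rose. The cluster on chromosome 5 (chr5:105014150-105293698) was mixed. Gbp6 rose from 0.533 ± 0.140 to 7.66 ± 0.614 CPM. Gbp9 fell from 16 ± 2.40 to 6.17 ± 1.71 CPM. Gbp8 fell from 1.45 ± 0.342 to 0.448 ± 0.0821 CPM. Gbp8 and Gbp9 overlap each other and Gbp4, and members of the family are similar in sequence, so their split of reads is uncertain. Gbp8 and Gbp9 are outside the naming rule and were picked after their values were seen.

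Genes of the inflammasome and of cell death rose in 12 of 18 cases and fell in 4 (median 0.96). Nlrp3, the sensor that activates caspase-1, stood at 22.2, 22.9 and 24.7 CPM in control and 258, 267 and 287 CPM in conditioned medium (adjusted p = 2.1e-20, log2 fold change 3.54 with SE 0.06). Fas, the death receptor, rose from 6.95 ± 0.529 to 71.7 ± 0.528 CPM. Casp4 (caspase-11) rose from 20.6 ± 0.166 to 88.2 ± 2.75 CPM. Mefv, which encodes pyrin, rose from 60.7 ± 3.0 to 211 ± 11.5 CPM. Ninj1, which ruptures the membrane of dying cells, rose from 168 ± 9.72 to 485 ± 7.87 CPM. Nlrp1b, another sensor of the same class, fell to low levels, at 27.0, 21.4 and 25.3 CPM in control and 1.25, 1.71 and 0.878 CPM in conditioned medium (adjusted p = 2.1e-14, log2 fold change −4.26 with SE 0.18). In the BCL2 family 11 of 17 rose and 4 fell (median 0.46). Bcl2a1b and Bcl2a1d, near-identical copies of the survival gene A1 whose reads cannot be fully separated, rose from 76.4 ± 7.43 to 943 ± 66.0 CPM and from 9.84 ± 1.67 to 642 ± 51.0 CPM. Bmf, a BH3-only gene that promotes cell death, stood at 45.6, 45.6 and 48.5 CPM in control and 3.09, 3.28 and 2.84 CPM in conditioned medium (adjusted p = 2.4e-17, log2 fold change −3.92 with SE 0.11). Other death-promoting members, Pmaip1 (29.3 ± 1.06 to 73.6 ± 3.10 CPM) and Bnip3 (31.2 ± 0.650 to 106 ± 4.07 CPM), rose.

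Lipid mediator enzymes were split 7 up and 9 down of 17 (median −0.53), and members on the route to prostaglandin E2 were among those that rose. Pla2g4a, which frees arachidonic acid, stood at 35.9, 36.6 and 40.8 CPM in control and 153, 163 and 156 CPM in conditioned medium. Ptgs2 (chr1:150100031-150108227, plus strand), cyclooxygenase-2, stood at 62.7, 62.1 and 62.5 CPM in control and 1064, 1078 and 1063 CPM in conditioned medium (adjusted p = 3.2e-23, log2 fold change 4.10 with SE 0.05). Ptges, the prostaglandin E synthase, stood at 9.13, 9.33 and 10.4 CPM in control and 127, 125 and 131 CPM in conditioned medium (adjusted p = 9.9e-20, log2 fold change 3.72 with SE 0.07). All 3 synthetic steps were higher in each conditioned medium library. Hpgd, which inactivates prostaglandins, stood at 131, 131 and 117 CPM in control and 6.11, 6.71 and 6.48 CPM in conditioned medium (adjusted p = 1.1e-19, log2 fold change −4.29 with SE 0.08). Alox5ap, which hands arachidonic acid to the leukotriene pathway, fell from 334 ± 8.30 to 165 ± 9.36 CPM.

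Acod1 (chr14:103046977-103056573, plus strand), which makes itaconate, stood at 9.61, 10.8 and 12.8 CPM in control and 2273, 2264 and 2339.8 CPM in conditioned medium (adjusted p = 2.3e-24, log2 fold change 7.69 with SE 0.07). The arginine carriers Slc7a2 and Slc7a1 rose from 13 ± 2.19 to 117 ± 5.16 CPM and from 14.8 ± 0.862 to 62.4 ± 2.72 CPM. Gch1, which makes the cofactor of nitric oxide synthase, rose from 18.7 ± 2.71 to 134 ± 13.9 CPM. Ass1, which rebuilds arginine, rose from 22.7 ± 1.34 to 55.2 ± 2.57 CPM. Nos2, the inducible nitric oxide synthase, had 3, 0 and 3 counts in control and 170, 169 and 244 in conditioned medium (adjusted p = 1.3e-13). Arg1, arginase 1, did not pass the filter, with 9, 1 and 0 counts in control and 2, 1 and 1 in conditioned medium. In the list as a whole 9 of 16 rose and 5 fell (median 0.40). Of 7 NADPH oxidase genes 5 rose and none fell (median 0.44). Cybb, the catalytic subunit, stood at 597, 598 and 651 CPM in control and 2707, 2719 and 2897 CPM in conditioned medium (adjusted p = 4.7e-19, log2 fold change 2.17 with SE 0.05). The GTPase Rac2 rose from 187 ± 1.28 to 654 ± 3.59 CPM. The cytosolic subunit Ncf4 rose from 174 ± 3.55 to 318 ± 2.23 CPM.

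Antimicrobial and acute phase genes rose in 13 of 17 cases, 12 of them at least 2-fold, and 1 fell (median 2.16). Saa3 (chr7:46711998-46715700, minus strand), an acute phase protein of macrophages, stood at 19, 19.1 and 18.0 CPM in control and 2935, 2494 and 2362 CPM in conditioned medium (adjusted p = 3.3e-20, log2 fold change 7.12 with SE 0.08); conditioned medium library 1 was the highest of its group. Cp, the copper oxidase ceruloplasmin, rose from 6.01 ± 0.838 to 67.4 ± 2.69 CPM. Complement C3 rose from 34.8 ± 4.50 to 229 ± 12.1 CPM. The pentraxin Ptx3 rose from 9.77 ± 1.77 to 67.8 ± 3.34 CPM. Hp, which binds haemoglobin, rose from 10.7 ± 0.680 to 49.4 ± 2.34 CPM. S100a8, also a neutrophil marker, rose from 5.79 ± 0.474 to 18.8 ± 1.91 CPM. Matrix proteases and fibrinolysis genes were split 10 up and 14 down of 26 (median −0.32). Mmp13, a collagenase, stood at 19.6, 18.8 and 16.2 CPM in control and 394, 399.7 and 387 CPM in conditioned medium (adjusted p = 1.1e-21, log2 fold change 4.43 with SE 0.06). F10, coagulation factor X, stood at 6.07, 6.30 and 6.68 CPM in control and 171, 172 and 159 CPM in conditioned medium. The membrane protease Mmp14 rose from 409 ± 17.8 to 1755 ± 60.3 CPM. Plaur, the urokinase receptor, rose from 78.0 ± 1.47 to 305 ± 18.2 CPM. Adam17, which sheds TNF from the surface, rose from 264 ± 4.65 to 723 ± 11.9 CPM.

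Surface molecules that meet lymphocytes rose in 14 of 21 cases and fell in 4 (median 0.78). Cd274 (chr19:29367455-29388095, plus strand), the checkpoint ligand PD-L1, stood at 15.2, 16.4 and 16.7 CPM in control and 373, 392.3 and 413 CPM in conditioned medium (adjusted p = 4.3e-22, log2 fold change 4.6 with SE 0.06). Cd40, which receives help from T cells, stood at 2.95, 4.07 and 3.65 CPM in control and 231, 227 and 215 CPM in conditioned medium (adjusted p = 7.6e-22, log2 fold change 5.97 with SE 0.08). Slamf7 rose from 50.7 ± 2.23 to 421 ± 28.1 CPM. Slamf8 rose from 15.2 ± 0.730 to 90.7 ± 5.52 CPM. Pvr, a ligand of TIGIT, rose from 19 ± 0.618 to 68.0 ± 2.30 CPM. Havcr2, the checkpoint receptor TIM-3, fell, at 40.5, 45.1 and 41.0 CPM in control and 3.98, 5.42 and 4.86 CPM in conditioned medium (adjusted p = 1.5e-15, log2 fold change −3.15 with SE 0.11). MHC class II genes had a median of 0.19, with 7 of 11 up and 4 down. Under total-count scaling the median was −0.14, with 2 up and 7 down. Ciita, their master regulator, fell from 22.0 ± 2.85 to 5.16 ± 0.649 CPM (adjusted p = 2.1e-11, log2 fold change −2.10 with SE 0.13). March1, which sends class II molecules to degradation, rose from 55.4 ± 1.73 to 155 ± 3.42 CPM. The class II chain gene H2-Ab1 stood at 589 ± 17.2 and 764 ± 30.5 CPM (adjusted p = 2.9e-07, log2 fold change 0.37 with SE 0.04), a call that total-count scaling does not make. Of 22 integrins and adhesion molecules 13 rose and 5 fell (median 0.36). Icam1 stood at 55.0, 54.8 and 66.8 CPM in control and 596, 605 and 662 CPM in conditioned medium (adjusted p = 2.2e-18, log2 fold change 3.4 with SE 0.07). Itga5, of the fibronectin receptor, rose from 193 ± 19.6 to 601 ± 42.7 CPM. Itgb8, part of an integrin that activates TGF-beta, rose from 0.515 ± 0.270 to 23.0 ± 2.23 CPM. Itgb5 fell from 592 ± 3.89 to 161 ± 7.36 CPM. Itga6, of the laminin receptor, fell from 141 ± 11.4 to 24.2 ± 3.51 CPM.

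Metabolic genes differed by pathway. Glycolysis and lactate genes rose in 18 of 24 cases and fell in 5 (median 0.83). Slc16a3, the lactate exporter MCT4, stood at 44.4, 44.9 and 48.5 CPM in control and 322, 303 and 313 CPM in conditioned medium (adjusted p = 1e-19, log2 fold change 2.77 with SE 0.05). The glucose carrier Slc2a1 stood at 45.5, 48.2 and 51.3 CPM in control and 211, 206 and 222 CPM in conditioned medium. Slc2a6, a carrier of the lysosome, rose from 13.1 ± 0.428 to 67.5 ± 1.45 CPM. Pfkl, a phosphofructokinase subunit, rose from 70.0 ± 3.19 to 231 ± 2.29 CPM. Phosphoglycerate kinase Pgk1 rose from 98.8 ± 1.09 to 248 ± 14.1 CPM. Pgam1 rose from 73.4 ± 3.55 to 190.4 ± 4.69 CPM. The TCA cycle had no gene past 2-fold: 10 of 23 rose and 10 fell, and its median of 0.05 becomes −0.28 under total-count scaling. Cs, citrate synthase, rose from 151 ± 7.14 to 274 ± 3.91 CPM. Idh1, the cytosolic isocitrate dehydrogenase, fell from 365 ± 10.6 to 190.1 ± 4.51 CPM. In fatty acid oxidation and storage 6 of 23 rose, 9 fell and 8 were not called (median −0.04). Lpl, which frees fatty acids from lipoproteins, stood at 3449, 3705 and 3326 CPM in control and 9424, 9132 and 8495 CPM in conditioned medium (adjusted p = 1.1e-15, log2 fold change 1.37 with SE 0.05). Mgll, the monoglyceride lipase, rose from 14.5 ± 1.97 to 60.3 ± 3.84 CPM. Cpt1a, which admits fatty acids to mitochondria, fell from 122 ± 3.54 to 47.1 ± 3.08 CPM. Plin2, a coat protein of lipid droplets, fell from 775 ± 11.9 to 477 ± 8.56 CPM.

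Oxysterol enzymes went in opposite directions within the list of LXR targets and cholesterol efflux, whose median of 0.02 becomes −0.31 under total-count scaling. Ch25h, which makes 25-hydroxycholesterol, rose from 1.17 ± 0.356 to 12.1 ± 1.41 CPM (adjusted p = 7e-12, log2 fold change 3.37 with SE 0.20). Cyp27a1, which makes 27-hydroxycholesterol, fell from 43.5 ± 1.61 to 7.08 ± 0.925 CPM (adjusted p = 5.9e-15, log2 fold change −2.62 with SE 0.10). The cholesterol exporters Abca1 and Abcg1 fell from 242 ± 12.7 to 169 ± 9.90 CPM and from 160.1 ± 3.99 to 96.6 ± 1.35 CPM. Ion transport genes are given because other groups of the series had added KCl or NaCl. Of 20 potassium channels and pumps 8 rose and 5 fell, with a median of 0.17 that becomes −0.16 under total-count scaling. Kcnj2, the Kir2.1 channel deleted elsewhere in the series, stood at 43.3, 49.0 and 43.0 CPM in control and 91.2, 93.7 and 94.5 CPM in conditioned medium (adjusted p = 1.2e-11, log2 fold change 1.05 with SE 0.06). The volume-regulated anion channel subunits Lrrc8c and Lrrc8d rose from 16.7 ± 1.80 to 49.6 ± 4.23 CPM and from 33.9 ± 2.77 to 95.1 ± 5.13 CPM. Slc12a4, a potassium-chloride cotransporter, rose from 57.5 ± 4.19 to 123 ± 2.05 CPM. Atp1b3, a beta subunit of the sodium pump, rose from 369 ± 1.91 to 626 ± 28.3 CPM.

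Genes for the uptake of dying cells fell: 16 of 19 members of the complement C1q and efferocytosis list were lower and 2 were higher (median −0.54). Mertk, the receptor that engulfs apoptotic cells, stood at 87.1, 84.4 and 105 CPM in control and 35.5, 43.8 and 41.5 CPM in conditioned medium (adjusted p = 7.9e-10, log2 fold change −1.20 with SE 0.09). Its bridging ligand Gas6 fell from 209.5 ± 7.23 to 94.8 ± 3.71 CPM. The lipid receptors Trem2, Cd300a and Cd300lf fell from 782 ± 21.8 to 446 ± 17.3 CPM, from 467 ± 22.9 to 169 ± 3.95 CPM and from 18.0 ± 0.964 to 1.61 ± 0.392 CPM. C1qc, a chain of C1q, fell from 1193 ± 6.65 to 851 ± 25.0 CPM.

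Most genes of DNA replication and DNA repair fell, and the cyclins and their inhibitors were mixed. Of 26 DNA replication genes 24 fell, 17 of them at least 2-fold, with a median of −1.19. Mcm6 (chr1:128331590-128359664, minus strand), a subunit of the replicative helicase, stood at 96.1, 94.7 and 96.3 CPM in control and 27.0, 28.0 and 27.1 CPM in conditioned medium (adjusted p = 1e-15, log2 fold change −1.81 with SE 0.06). Other subunits fell with it: Mcm7 from 43.2 ± 1.79 to 12.3 ± 0.439 CPM. Mcm4 fell from 45.7 ± 0.950 to 16.4 ± 0.726 CPM. Mcm5 fell from 39.8 ± 1.87 to 14.6 ± 1.14 CPM. Cdt1, which loads the helicase, fell from 40.7 ± 1.70 to 17.7 ± 0.712 CPM. Rrm2, the ribonucleotide reductase subunit, fell from 38.8 ± 1.5 to 12 ± 2.78 CPM. Tyms, thymidylate synthase, was not called (adjusted p = 0.09, log2 fold change −0.25 with SE 0.13) but was lower under total-count scaling (adjusted p = 0.00032). Pola2, a subunit of DNA polymerase alpha and outside the naming rule, was the single member that rose, at 18.2, 16.6 and 17.7 CPM in control and 36.7, 36.9 and 36.5 CPM in conditioned medium (adjusted p = 3.2e-10, log2 fold change 1.07 with SE 0.08). Promoters of Mcm6 and Mcm5 are shown with the E2F motif TTTNGCGC, on either strand, in capitals (RefSeq windows, GRCm38.p6, 5′ to 3′: Mcm6 chr1:128359656-128359955, minus strand; Mcm5 chr8:75109259-75109558, plus strand).
Mcm6: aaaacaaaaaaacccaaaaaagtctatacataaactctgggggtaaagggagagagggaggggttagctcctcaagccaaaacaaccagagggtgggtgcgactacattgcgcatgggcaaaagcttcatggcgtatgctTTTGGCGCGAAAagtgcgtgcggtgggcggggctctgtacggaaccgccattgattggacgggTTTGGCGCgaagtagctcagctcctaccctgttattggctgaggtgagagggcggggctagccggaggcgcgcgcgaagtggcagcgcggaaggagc
Mcm5: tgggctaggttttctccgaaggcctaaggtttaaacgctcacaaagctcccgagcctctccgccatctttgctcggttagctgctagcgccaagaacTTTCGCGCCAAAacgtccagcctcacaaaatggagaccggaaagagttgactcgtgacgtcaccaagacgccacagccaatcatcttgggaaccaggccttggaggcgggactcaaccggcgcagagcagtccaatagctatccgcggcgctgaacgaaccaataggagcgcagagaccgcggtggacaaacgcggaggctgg
Overlapping matches on opposite strands began at −110 and −106 in Mcm6 and at −153 and −149 in Mcm5, and Mcm6 held another at −47. The RefSeq starts of both genes, from which these positions count, lie upstream of the gene starts in the annotation used for positions.

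DNA repair genes fell in 17 of 22 cases and none rose (median −1.01). Msh6, a mismatch repair protein, stood at 27.8, 27.2 and 29.8 CPM in control and 10.8, 10.8 and 9.99 CPM in conditioned medium (adjusted p = 4.6e-11, log2 fold change −1.43 with SE 0.09). Ung, which removes uracil from DNA, fell from 4.57 ± 0.329 to 0.584 ± 0.194 CPM. The ligase Lig1 fell from 30.9 ± 3.23 to 12.1 ± 1.02 CPM. Of 20 cyclins and inhibitors of cyclin-dependent kinases 4 rose and 10 fell (median −0.20), and their summed level went from 733 to 750.4 CPM in control to 931.8 to 965 CPM in conditioned medium. Ccnd1, cyclin D1, stood at 36.2, 38.3 and 39.5 CPM in control and 10.6, 8.49 and 9.05 CPM in conditioned medium (adjusted p = 2.4e-13, log2 fold change −2.02 with SE 0.10). Ccne2, cyclin E2, fell from 18.8 ± 1.06 to 5.93 ± 0.440 CPM. The inhibitors Cdkn1a (p21) and Cdkn2b (p15) rose from 219 ± 4.73 to 507 ± 13 CPM and from 2.39 ± 0.38 to 11.9 ± 1.64 CPM. Cdkn2c (p18) fell from 16 ± 0.550 to 5.17 ± 0.156 CPM.

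Of 12 microRNA host and immune long noncoding RNAs 5 rose and 4 fell (median −0.09). Mir155hg, the host transcript of miR-155, stood at 0.161, 0.298 and 0.288 CPM in control and 19.4, 16.8 and 19.1 CPM in conditioned medium (adjusted p = 1.1e-15, log2 fold change 6.16 with SE 0.21). Mir22hg rose from 65.4 ± 2.59 to 155 ± 2.76 CPM. Ptgs2os2, on chromosome 1, rose from 1.73 ± 0.352 to 9.45 ± 1.66 CPM. The nuclear RNA Neat1 fell from 1899 ± 92.2 to 1655 ± 80.0 CPM (adjusted p = 0.00079, log2 fold change −0.20 with SE 0.05), a call that was lost when the spread was shared with the KCl and NaCl libraries (adjusted p = 0.10).

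Several of the genes with the highest or lowest folds belong to none of these lists. Shisa3, a membrane protein that restrains Wnt and FGF receptors, rose from 0.0670 ± 0.0281 to 28.9 ± 2.13 CPM. Zfp811, a zinc finger protein, rose from 0.215 ± 0.0977 to 44.5 ± 1.31 CPM. On the other side, Slco2b1, an organic anion transporter, stood at 13, 11.8 and 12.3 CPM in control and 0.295, 0.285 and 0.270 CPM in conditioned medium (adjusted p = 3.9e-14, log2 fold change −5.41 with SE 0.23). Pde3b, a phosphodiesterase of cyclic AMP, stood at 69.3, 66.6 and 70.3 CPM in control and 3.02, 2.78 and 2.30 CPM in conditioned medium (adjusted p = 8.2e-19, log2 fold change −4.67 with SE 0.10). Lpar6, a receptor of lysophosphatidic acid, fell from 113 ± 1.95 to 4.55 ± 1.10 CPM. Cytip fell from 106 ± 0.939 to 4.45 ± 0.529 CPM. Pald1 fell from 86.4 ± 3.96 to 3.22 ± 0.308 CPM. The peroxisomal transporter Abcd2 fell from 16.1 ± 1.45 to 0.635 ± 0.124 CPM. Groups without overlap were a condition for naming genes by highest or lowest fold, so for these genes that trait is given by the choice.

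Short motifs were counted in the promoter windows of raised and lowered genes. RefSeq windows were given for 10006 of the tested genes (12766 windows). The kappaB motif GGNNTTTCC was in 6.25% of all windows, 9.85% of the 1198 windows of genes at least 2-fold higher, 19.6% of the 97 windows of genes at least 16-fold higher and 5.24% of the 1509 windows of genes at least 2-fold lower. The interferon-response motif AAANNGAAA was in 8.15%, 11.2%, 19.6% and 8.55% of the same windows, the AP-1 motif TGANTCA in 5.33%, 7.93%, 14.4% and 7.55%, and the TATA box TATAAA in 7.27%, 11%, 19.6% and 9.68%. The amino acid response motif TGATGNAA was in 2.35%, 4.34%, 9.28% and 2.58%, and the gamma-activated motif TTCNNNGAA in 6.82%, 8.18%, 12.4% and 6.36%. The AP-1 share of the lowered genes was thus close to that of genes at least 2-fold higher. Other motifs did not climb in this way. The E2F motif TTTNGCGC was in 2.35%, 1.25%, 1.03% and 2.52% of the same windows, and a second E2F motif, TTTCCCGC, in 2.03%, 0.835%, 2.06% and 2.39%. The cyclic AMP response motif TGACGTCA was in 2.97%, 1.92%, 0% and 1.86%. The antioxidant response motif TGACNNNGC was in 14.5%, 15.7%, 9.28% and 14.5%, and the CCAAT box CCAAT in 37.7%, 32.3%, 29.9% and 41.9%. By list, kappaB and AP-1 were each in 6 of 19 windows of NF-kB genes (31.6%), and the gamma-activated motif in 4 (21.1%). The interferon-response motif was in 22 of 35 windows of interferon-stimulated genes (62.9%) and AP-1 in 10 (28.6%). The E2F motif TTTNGCGC was in 8 of 22 windows of DNA replication genes (36.4%), and the CCAAT box in 15 (68.2%), against 37.7% of all windows. These shares are descriptions without a test, and windows of a gene with several starts share sequence. Genes at least 2-fold higher had a median transcript length of 3156 nt and a GC content of 48.8%, those at least 2-fold lower 3311 nt and 49.9%, and those not called 2931 nt and 49.7%.

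**Figure D4:**
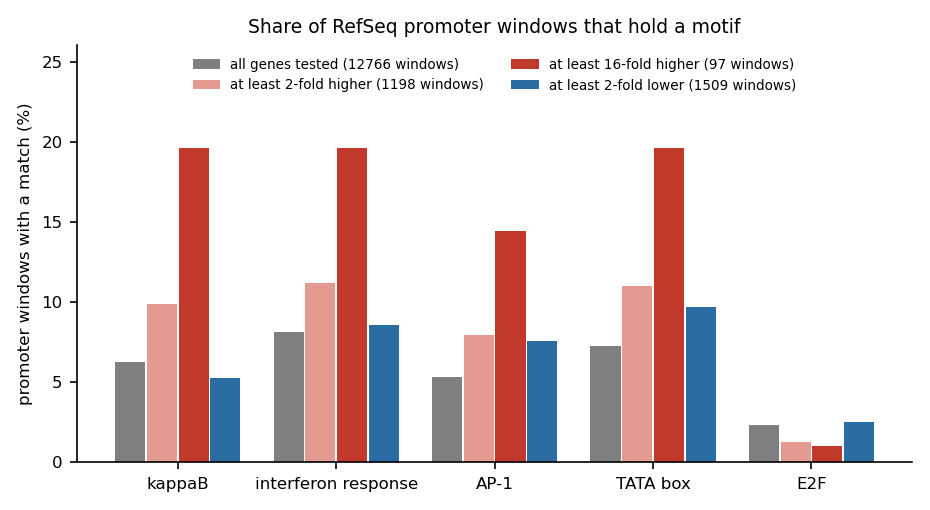
Share of RefSeq promoter windows (percent, from 250 bases before to 50 after the start) that hold each of 5 motifs on either strand, for all genes tested and for genes at least 2-fold higher, at least 16-fold higher and at least 2-fold lower. The dark red bars of genes at least 16-fold higher are the tallest for kappaB, interferon response, AP-1 and TATA box (14.4% to 19.6%), but rest on 97 windows.

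The same genes were also measured in the other groups, all of which had conditioned medium. These levels, on a TMM scale over all 17 libraries, are set side by side with no test. Control libraries held 7.07 to 9.32 CPM of Cxcl2, and those with conditioned medium alone 4465 to 4861 CPM. With KCl the range was 6805 to 9060.2 CPM, and with NaCl 7376 to 7839 CPM. Floxed cells in isotonic KCl held 6328 to 9370.4 CPM and knockout cells 6356 to 8156 CPM. Its level was thus above that of conditioned medium alone in every library of the 4 other groups. On that 17-library scale Il1a ranged over 1.02 to 1.97 CPM in control libraries and 382 to 421 CPM with conditioned medium alone. KCl libraries held 57.1 to 83.8 CPM and NaCl libraries 169 to 175 CPM. Floxed cells held 351 to 475 CPM and knockout cells 331 to 442 CPM. The KCl and NaCl libraries were thus below every library with conditioned medium alone and above every control library. Cxcr4 was at 152 to 162 CPM in control libraries and 3.98 to 4.07 CPM with conditioned medium alone. KCl libraries held 24.2 to 32.9 CPM of it and NaCl libraries 9.06 to 12.1 CPM. Glul was at 832 to 858 CPM in control libraries and 178 to 189 CPM with conditioned medium alone. KCl libraries held 425 to 497 CPM of Glul and NaCl libraries 469.8 to 494 CPM. In isotonic KCl the floxed libraries held 98.8 to 118 CPM and the knockout libraries 89.6 to 102 CPM. Both genes were thus between control and conditioned medium alone with either salt.

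**Figure D5:**
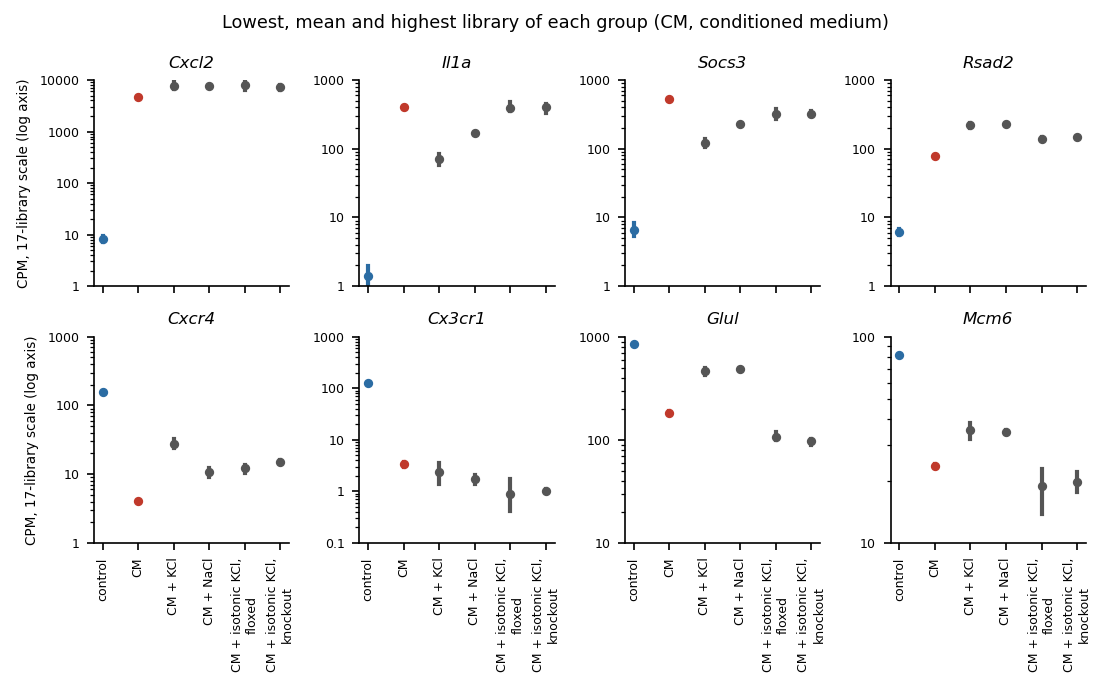
Level of 8 genes in the 6 groups of the series (CPM on the 17-library TMM scale, log axes); points are group means and bars run from the lowest to the highest library (3 libraries a group, 2 with NaCl). Control is blue, conditioned medium alone red, and the other groups grey; Cxcl2, Il1a, Socs3 and Rsad2 were above control in every other group, and Cxcr4, Cx3cr1, Glul and Mcm6 below it.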

How the data were processed

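Total RNA of 6 macrophage libraries, 3 per group, was compared. The unit is the raw count per Ensembl gene, as deposited. No aligner, counting program, genome build or strand setting is given in the sources used here, and DESeq2 1.30.1 is listed with no role, per the submitters' processing notes. Symbols and positions were matched through GENCODE M21 (GRCm38); 260 of 55401 identifiers, with 0.0121% of counts, had no symbol. Counts were filtered with filterByExpr and tested with edgeR 4.0.16 (TMM, robust quasi-likelihood F test, R 4.3.3) on the 6 libraries alone, with Benjamini-Hochberg adjustment over all genes tested and a threshold of 0.05; a second rule adds a change of at least 2-fold. The SE is the log2 fold change divided by the square root of F. The procedure was tested on simulated counts with known changes, 100 genes per fold size, raised and lowered in equal number. Far fewer genes were changed there than were called here, so the simulation does not test how the split depends on the scale. Alternatives were DESeq2 1.42.0, other scalings and filters, a replicate block, a fit over 11 libraries, and leaving out each library.

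Named genes were the 12 highest and 12 lowest fold changes with at least 10 CPM in 1 group and no overlap, the 10 largest gains and losses of CPM, up to 6 changed members of every list by p and up to 3 uncalled ones by level, and 8 genes set by name. Members and lists were chosen with earlier results of these data known. Nothing says that the replicates are separate cultures or animals, so p-values measure only how far these samples differ among themselves, and that may be technical. RefSeq promoter windows (GRCm38.p6) were searched for motifs on both strands. Chi-square per degree of freedom was 2.08 to 5.83 between replicates, above counting noise, so no library was taken as a copy of another.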

Additional observations from a re-analysis of the deposited data

How the results depend on the processing

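The count of changed genes was 9259, and 8684 with DESeq2, 9239 with RLE factors, 8757 of 12400 under a stricter filter, 9642 of 24037 with no filter and 7773 of 14519 in a fit over 11 libraries; of the 9259, 8667 were called in the same direction with DESeq2 and 7579 over 11 libraries. Leaving out each library in turn gave 8740 to 9161 changed genes, 4366 to 4602 higher and 4293 to 4559 lower, 1309 to 1381 at least 2-fold higher and 1660 to 1755 at least 2-fold lower. Total-count scaling moved the split most: 2636 genes were higher, 7644 lower and 2777 at least 2-fold lower, and 207 genes were called in the opposite direction. Under it, members called lower became 9 scavenger and lectin receptors (from 5), 7 adaptors and brakes (from 4), 7 costimulatory molecules (from 4), 9 integrins (from 5), 16 TCA cycle genes (from 10), 15 fatty acid genes (from 9) and 7 noncoding RNAs (from 4). So did 3 cytosolic sensors (from 1), 2 CC chemokines (from 1), 3 antimicrobial and acute phase genes (from 1) and 5 complement and formyl peptide receptors (from 3). In the NADPH oxidase list 1 gene was lower (from 0), as was 1 interferon-stimulated gene (from 0). Higher and lower members became 9 and 14 cytokine receptors (from 13 and 10), 5 and 10 LXR targets (from 8 and 6) and 8 and 9 potassium channels and pumps (from 8 and 5). In the 11-library fit no noncoding RNA of that list was lower. The labels do not say whether replicate numbers pair the libraries, and this was not tested. Deviations of same-numbered libraries correlated at 0.0504, 0.0381 and 0.188, and those of differently numbered libraries at −0.143 to 0.104. Control libraries 1 and 3 correlated best with the conditioned medium library of the same number, and control library 2 with conditioned medium library 1 (0.104). With the replicate number as a block 9754 genes changed, 9237 of them called in the same direction without it. Depth limits genes under about 3 counts per library, and folds of genes with a few control counts, such as Il12a, Nos2, Csf3 and Shisa3, are imprecise. So are folds of genes with a few conditioned medium counts, such as Slco2b1, Il11 (4, 1 and 4 counts) and Cxcr3 (2, 3 and 3 counts).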
